A study of Mus musculus with 8 samples.

Results

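The genes described here are the sensors of viral RNA and the receptor subunits, STAT protein and IRF transcription factors through which type I interferon acts. They are *Ifih1*, *Ddx58*, *Dhx58*, *Ifnar1*, *Ifnar2*, *Stat2*, *Irf9*, *Irf1* and *Irf7*. They were picked out by gene symbol, with earlier results of these data known, and all 9 were found among the 55276 gene symbols of the deposited tables. The libraries came from fibro-adipogenic progenitors (FAPs), the connective tissue progenitors of skeletal muscle, which expand after injury and exchange signals with immune cells and muscle stem cells. The study asked how loss of Osr1, a zinc finger transcription factor switched on in FAPs of injured muscle, changes the transcriptome of these cells during regeneration.

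There were 4 groups of 2 libraries each. Control libraries (Ctrl) came from Osr1 flox/+ CAGG Cre+ mice and knockout libraries (Osr1cKO) from Osr1 flox/flox CAGG Cre+ mice, both at 3 and at 7 days post injury (dpi). The Cre is tamoxifen-inducible and ubiquitous, so that other cells of the muscle and of the body can also recombine, and both genotypes were given tamoxifen on the day of injury and on the next 2 days. The tibialis anterior muscle of mice aged 4 to 6 months was injured by freeze-piercing. Recombination puts eGFP under the control of the Osr1 locus, and the GFP+ cells were sorted, with antibodies to CD45, CD31 and TER119 marking blood, endothelial and red blood cells. Controls are therefore heterozygous for a recombined allele, not wild type. At 3 dpi 1 mouse gave 1 library, whereas at 7 dpi 4 mice were pooled for each library, so a spread between libraries means different things at the 2 time points.

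Viral or self RNA in the cytoplasm is detected by the RIG-I-like receptors, helicases that signal through the mitochondrial adaptor MAVS to induce interferon beta and interferon alpha. These interferons bind the receptor IFNAR, made of the subunits IFNAR1 and IFNAR2, which activates the kinases JAK1 and TYK2. STAT2 and IRF9 are parts of the factor ISGF3 that then forms, which binds interferon-stimulated response elements (ISREs) and switches on many antiviral genes, among them the sensors, *Stat2*, *Irf9* and *Irf7* themselves. Interferon gamma acts mainly through another element, the gamma-activated site (GAS), of which the *Irf1* promoter holds a well-known example.

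The promoters are shown because these elements are the usual route by which interferon acts on the genes. RefSeq promoter windows of 300 bases (250 before the start site, 50 from it on; GRCm38.p6) were found for 8 of the 9 genes, with 10 windows in all, and *Dhx58* had none. The ISRE core, GAAA and GAAA with any 2 bases between them, was searched on both strands and is held by 3.44% of the 32851 mouse windows of this length. The GAS core, TTC and GAA with any 3 bases between them, reads the same on both strands and is held by 8.3% of them. The cores do not overlap in these windows. Matches are in capitals below, and bases count from the start site as 1, with negative numbers before it. An ISRE match lay at bases 33 to 42 in *Ifih1* (chr2:62646208-62646237, minus strand, bases 19 to 48 shown), within the transcribed part. In *Ddx58* it lay on the opposite strand at bases 3 to 12 (chr4:40239796-40239925, minus strand, bases -100 to 30 shown), and in *Stat2* on the opposite strand at bases -222 to -213 (chr10:128270248-128270348, plus strand, bases -250 to -150 shown). A GAS match lay at bases -90 to -82 in *Irf1* (chr11:53769874-53769973, plus strand, bases -140 to -41 shown). *Irf7* is shown because its fold change at 3 dpi was the largest of the 9 while its window held neither core (chr7:141266425-141266674, minus strand, the 250 bases before the RefSeq start). The GENCODE coordinates of *Irf7* reach base 141266481, inside the stretch shown, so by that annotation part of the stretch belongs to the gene.
Ifih1: tggagaagagaatcGAAACAGAAAccgatc
Ddx58: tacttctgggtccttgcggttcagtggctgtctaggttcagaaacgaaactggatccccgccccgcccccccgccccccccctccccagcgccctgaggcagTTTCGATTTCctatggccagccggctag
Stat2: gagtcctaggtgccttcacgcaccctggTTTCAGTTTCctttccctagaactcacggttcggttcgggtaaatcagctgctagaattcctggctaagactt
Irf1: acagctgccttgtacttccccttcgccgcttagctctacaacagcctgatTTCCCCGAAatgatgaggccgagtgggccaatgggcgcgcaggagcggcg
Irf7: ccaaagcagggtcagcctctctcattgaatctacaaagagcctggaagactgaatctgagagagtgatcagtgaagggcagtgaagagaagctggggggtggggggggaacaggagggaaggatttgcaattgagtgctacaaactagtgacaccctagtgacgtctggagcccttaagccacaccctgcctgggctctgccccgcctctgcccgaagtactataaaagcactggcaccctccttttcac
A GAS match was also present in the windows of *Ifnar1*, at bases -5 to 4, and of *Ifnar2*, at bases -214 to -206. Neither core was found in either window of *Irf9* or in the second window of *Irf1*. These matches describe the letters of the windows and are not evidence of binding.

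Levels are given as deposited TPM, a share of the transcripts of a library that is corrected for transcript length and can be compared between genes. Each library held 36516528 to 51096358 fragments, recovered from the TPM values and exon lengths, and each of the 9 genes rested on between 495 and 41011 fragments in every library. Close pairs of libraries, such as *Dhx58* and *Irf1* in Ctrl at 7 dpi, differed by no more than counting error allows. All 9 passed the filter on low values in every comparison. FAP markers were high (a summed 26759 to 54220 TPM over 8 genes). At 3 dpi Ctrl replicate 1, the highest of the 4 libraries for 8 of the 9 genes, stood apart in summed markers. Its FAP sum was 26759 TPM against 38344 to 42432 TPM in the other 3, and its endothelial sum 44.6 TPM against 17.2 to 21.4 TPM. Single markers were mixed. *Col1a1* (12404 TPM against 20485 to 25017 TPM), *Col3a1*, *Cd34* and *Lum* were lowest in this library. *Pdgfra* (365 TPM), *Ly6a* (5407 TPM) and *Dcn* (1332 TPM) were highest in it. *Kdr* (16.8 TPM against 0.88 to 2.25 TPM) and *Tek* (25.4 TPM against 14.9 to 16.5 TPM) were high, but *Pecam1* and *Cdh5* did not set it apart from Ctrl replicate 2. Of 6 endothelial markers 5 were tested at 3 dpi, and all 5 had fitted values below 0 (median log2 difference -0.37) without passing the test. *Ptprc*, which encodes CD45, was at 0.216 TPM or less, and 4 of 8 macrophage markers stayed below 1 TPM, with summed macrophage levels of 20.1 and 17.9 TPM in Ctrl and 18.7 and 11.1 TPM in Osr1cKO at 3 dpi. Markers of plasmacytoid dendritic cells, 4 in number, were mixed. *Siglech* was at or near 0 and *Ccr9* at 0.141 TPM or less, *Klk1* reached 3.95 TPM, and *Tcf4* ranged from 14.9 to 33.4 TPM. Of this list 2 were tested at each time point, and at 3 dpi none passed. For 7 dpi, 2 were lower in Osr1cKO by a p under 0.05 before adjustment in limma (median log2 difference -0.65), beside 5.91% of all genes, and 0 after adjustment. *Siglech* and *Ccr9* were at 0.0536 TPM or less at 7 dpi. *Klk1* was then at 1.98 and 3.95 TPM in Ctrl and 0.869 and 1.26 TPM in Osr1cKO, and *Tcf4* at 31.0 and 33.4 TPM against 24.9 and 31.7 TPM. The part of cells other than FAPs in the results was not tested. *Osr1* itself was at 105 and 91.0 TPM in Ctrl and at 70.7 and 71.9 TPM in Osr1cKO at 3 dpi, and at 67.6 and 71.6 TPM against 64.4 and 60.8 TPM at 7 dpi. A value for the whole gene includes sequence outside the deleted part and is thus a weak check of the knockout. The study itself reports that reads of the floxed exon were strongly reduced in its sequencing data. It also reports less *Osr1* mRNA in knockout FAPs by RT-qPCR. At 7 dpi the pools differed in sex. Summed levels of 4 Y-linked genes were 81.3 and 93.7 TPM in Ctrl and 18.2 and 4.18 TPM in Osr1cKO, while *Xist*, the RNA of the inactive X chromosome, was at 12.4 and 0.0252 TPM against 110 and 103 TPM. All 4 libraries at 3 dpi had Y-linked sums of 0.00504 TPM or less. Genotype and sex therefore cannot be told apart at 7 dpi, nor day and sex in either genotype, although none of the 9 genes lies on a sex chromosome.

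At 3 dpi, 5 of the 9 genes were lower in Osr1cKO FAPs by the threshold of the study for this time point, a p under 0.05 before adjustment, so that the 95% confidence interval leaves out 0, with more than a 1.2-fold change. These were all 3 RIG-I-like receptors, *Stat2* and *Irf7*, with fold changes between 1.91 and 3.68. *Irf9* and *Irf1* were also lower in both Osr1cKO libraries without passing the test, and the receptor subunits *Ifnar1* and *Ifnar2* did not pass it either. Of the 15699 genes tested, 3.89% were called lower and 2.38% higher. None (0%) of the genes tested passed a Benjamini-Hochberg adjusted p of 0.1 in limma, whereas 985 (6.27%) passed before adjustment, so the calls are those of an unadjusted threshold. In bulk libraries fewer cells of a kind and less RNA per cell cannot be told apart.

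**Figure D1:**
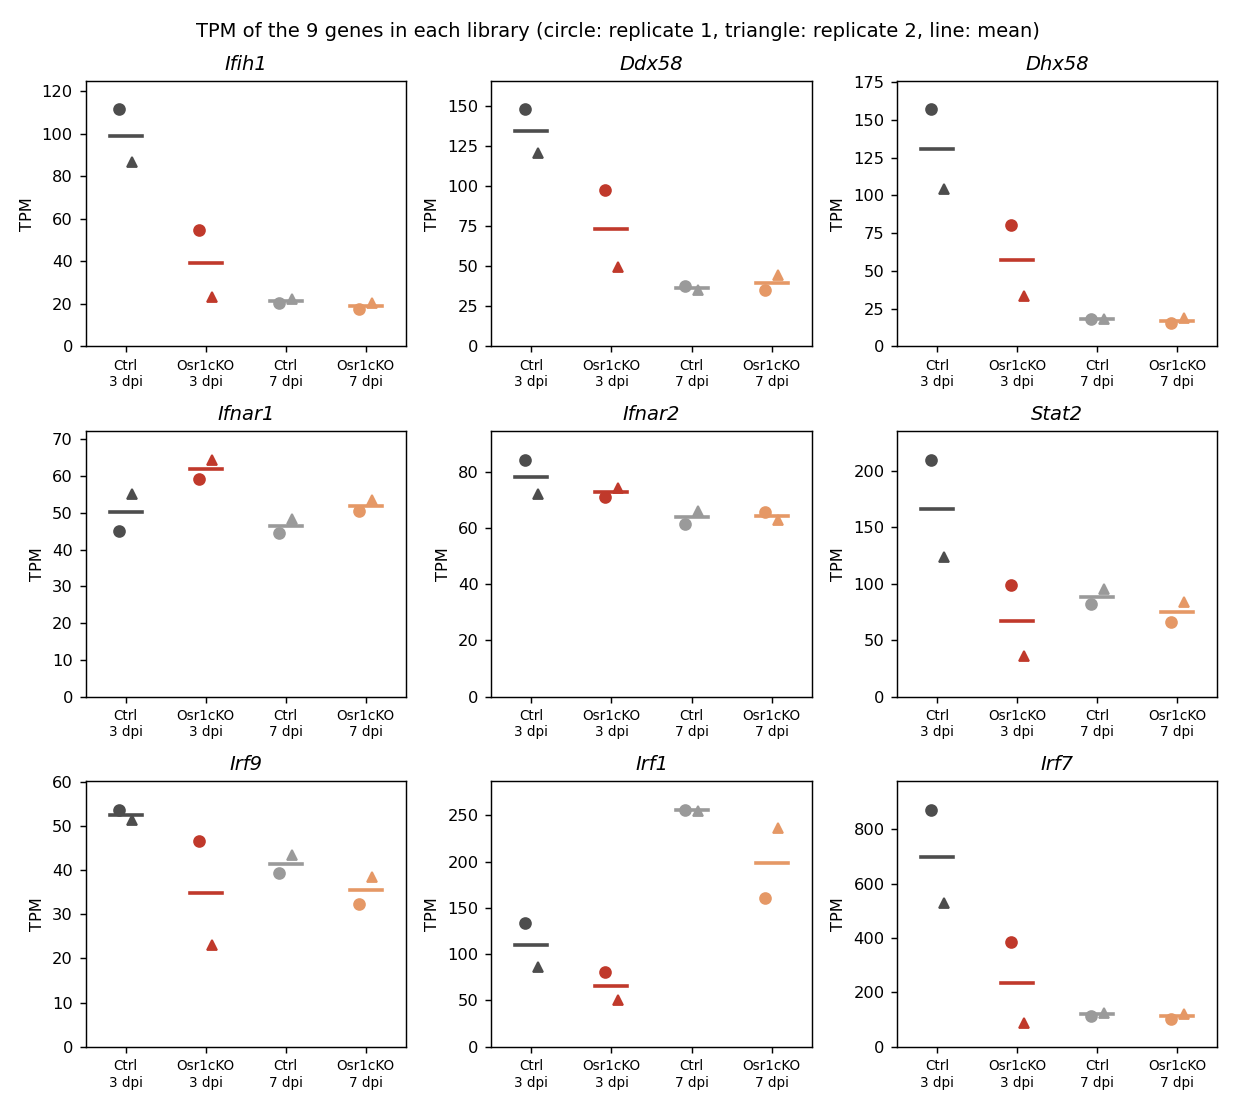
TPM (y axis, linear, from 0) of each of the 9 genes in the 8 libraries, by genotype and time point (x axis), with circles for replicate 1, triangles for replicate 2 and a line at the mean of the 2 libraries. At 3 dpi the Ctrl libraries lie above the Osr1cKO libraries for every gene except *Ifnar1* and *Ifnar2*, and at 7 dpi the 3 sensors and *Irf7* lie at 124 TPM or less in every library.

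*Ifih1* (ENSMUSG00000026896.14, chr2:62595798-62646255, minus strand, mm10) encodes MDA5, the sensor of long double-stranded RNA. At 3 dpi it measured 111 and 86.6 TPM in Ctrl and 54.8 and 23.3 TPM in Osr1cKO (99.0 ± 17.6 against 39.0 ± 22.3, mean ± SD, n = 2). The lowest Ctrl library was 1.58 times the highest Osr1cKO library, the widest gap among the 9 genes. The log2 fold change was -1.43 ± 0.42 (SE), with a 95% confidence interval from -2.52 to -0.35 (adjusted p = 0.772).

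*Ddx58* (ENSMUSG00000040296.15, chr4:40203773-40239828, minus strand) encodes RIG-I, the sensor of RNA with a 5′ triphosphate. Its levels were 148 and 121 TPM in Ctrl and 97.4 and 49.3 TPM in Osr1cKO. Both Osr1cKO libraries lay below both Ctrl libraries, but the Osr1cKO libraries differed from each other by 1.98 times, more than the group means did (1.83 times). The log2 fold change was -0.93 ± 0.35 (95% confidence interval -1.83 to -0.04, adjusted p = 0.784).

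*Dhx58* (ENSMUSG00000017830.15, chr11:100694884-100704271, minus strand) encodes LGP2, the third receptor of this family, which lacks the signalling domain of the other two and tunes their activity. It stood at 157 and 104 TPM in Ctrl and at 80.7 and 33.7 TPM in Osr1cKO, again without overlap. The log2 fold change was -1.27 ± 0.46 (95% confidence interval -2.44 to -0.10, adjusted p = 0.784). An antisense gene, *Dhx58os*, covers 4.31% of its exon bases and reached at most 7.33 TPM.

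Neither receptor subunit passed the test at 3 dpi. *Ifnar1* (ENSMUSG00000022967.13, chr16:91485238-91507441, plus strand), the subunit that carries TYK2, was at 45.2 and 55.2 TPM in Ctrl and 59.2 and 64.5 TPM in Osr1cKO. Its Osr1cKO libraries were the higher ones, separated by a gap of 1.07 times, with a log2 difference of 0.30 ± 0.15 (95% confidence interval -0.09 to 0.69, adjusted p = 0.831). Without Ctrl replicate 2 the difference was 0.44 and passed the unadjusted threshold. *Ifnar2* (ENSMUSG00000022971.18, chr16:91372783-91405589, plus strand), the subunit that binds interferon most tightly and carries JAK1, was at 84.5 and 72.2 TPM in Ctrl and 71.3 and 74.3 TPM in Osr1cKO. The groups overlapped and the log2 difference was -0.10 ± 0.13, with an interval from -0.44 to 0.23 (adjusted p = 0.923).

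*Stat2* (ENSMUSG00000040033.16, chr10:128270559-128292849, plus strand) encodes the STAT protein specific to type I and type III interferon. It ranged widely within each group, with 210 and 123 TPM in Ctrl and 98.6 and 35.6 TPM in Osr1cKO (167 ± 61.4 against 67.1 ± 44.5, n = 2). The groups did not overlap, and the log2 fold change was -1.42 ± 0.54 (95% confidence interval -2.80 to -0.05, adjusted p = 0.784). *Irf9* (ENSMUSG00000002325.15, chr14:55603571-55610030, plus strand), which gives ISGF3 its DNA-binding specificity, was at 53.6 and 51.4 TPM in Ctrl and 46.5 and 23.0 TPM in Osr1cKO. Here the 2 Ctrl libraries were close to each other and Osr1cKO replicate 1 was near them, the gap between the groups being 1.11 times. The log2 difference was -0.67 ± 0.35 (95% confidence interval -1.55 to 0.22, adjusted p = 0.831).

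*Irf7* (ENSMUSG00000025498.15, chr7:141262706-141266481, minus strand), the IRF that amplifies the production of interferon alpha, had the highest mean level of the 9 in both groups at 3 dpi. Ctrl libraries measured 872 and 528 TPM and Osr1cKO libraries 384 and 87.8 TPM (700 ± 244 against 236 ± 209, n = 2). The Osr1cKO libraries differed by 4.37 times and the Ctrl libraries by 1.65 times, against a ratio of 2.97 between the means. Its log2 fold change of -1.88 ± 0.73 was the largest of the 9, and its interval came close to 0 (-3.74 to -0.01, adjusted p = 0.784). *Irf1* (ENSMUSG00000018899.16, chr11:53770014-53778374, plus strand) encodes the IRF that responds to interferon gamma and to NF-κB signals. It was at 134 and 86.3 TPM in Ctrl and 80.7 and 50.9 TPM in Osr1cKO. Ctrl replicate 2 and Osr1cKO replicate 1 were 1.07 times apart, and the log2 difference was -0.74 ± 0.31 (95% confidence interval -1.54 to 0.07, adjusted p = 0.811).

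Across the 9 genes the median log2 difference at 3 dpi was -0.93, against 0.01 over all genes tested. The groups did not overlap in the lower direction for 7 of the 9 genes, a pattern shown by 18.1% of all genes tested, and in the higher direction for 1 gene, *Ifnar1* (18.3% of all genes). The order of the 4 libraries was the same for these 7 genes: Ctrl replicate 1 was highest, followed by Ctrl replicate 2, Osr1cKO replicate 1 and Osr1cKO replicate 2. This order is that of deposited TPM, and since the groups did not overlap, only the order within each genotype adds to it. For *Irf9* the Ctrl libraries were close (53.6 and 51.4 TPM). Scaling over all 8 libraries reversed that pair (centred log2 values of 0.37 and 0.38). The share of all genes with the same order was not counted. *Ly6a*, an interferon-responsive gene that is also the FAP surface marker Sca-1, had a mean of 4819 ± 831 TPM in Ctrl and 2539 ± 734 TPM in Osr1cKO. It lies outside the rule by which genes were named here, and the antibodies of the study for cell sorting included one to Sca-1. The 8 FAP markers as a list did not follow *Ly6a*, with 4 fitted values below 0 and 4 above, a median of 0.01 and 1 called lower.

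**Figure D2:**
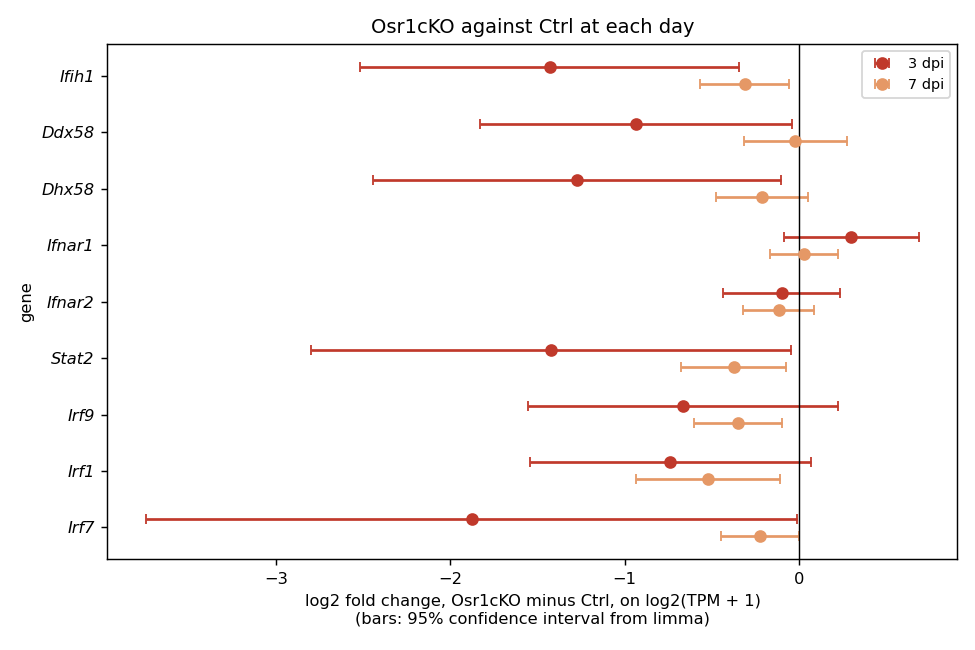
Log2 fold change of Osr1cKO against Ctrl (x axis) of the 9 genes (y axis) at 3 dpi (dark red) and 7 dpi (light red), with bars for the 95% confidence interval from limma. At 3 dpi the intervals of *Ifih1*, *Ddx58*, *Dhx58*, *Stat2* and *Irf7* lie below 0 and are wide, while at 7 dpi every estimate lies between -0.52 and 0.03.

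The size of the 3 dpi differences depended on single libraries. Without Osr1cKO replicate 2, the lowest library, the log2 fold change was -0.81 for *Ifih1*, -0.43 for *Ddx58*, -0.63 for *Dhx58*, -0.68 for *Stat2* and -0.80 for *Irf7*, and 1 gene, *Ifih1*, remained called. Without Osr1cKO replicate 1 the same values were -2.05, -1.44, -1.91, -2.17 and -2.96, with *Irf9* at -1.18 and *Irf1* at -1.09. Leaving out Ctrl replicate 1, the library that stood apart in summed FAP and endothelial markers, made the values of the 5 called genes smaller in size. They then lay between -1.53 and -0.80, and these genes lost their calls. Without Ctrl replicate 2 there were 4 genes called lower, *Ifih1* (-1.61), *Dhx58* (-1.57), *Stat2* (-1.80) and *Irf1* (-1.05). The sign of all 7 lower genes was negative in each of these fits. The count of all genes called lower also moved, from 611 to 234 without Osr1cKO replicate 2 and to 1676 without Ctrl replicate 2.

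**Figure D3:**
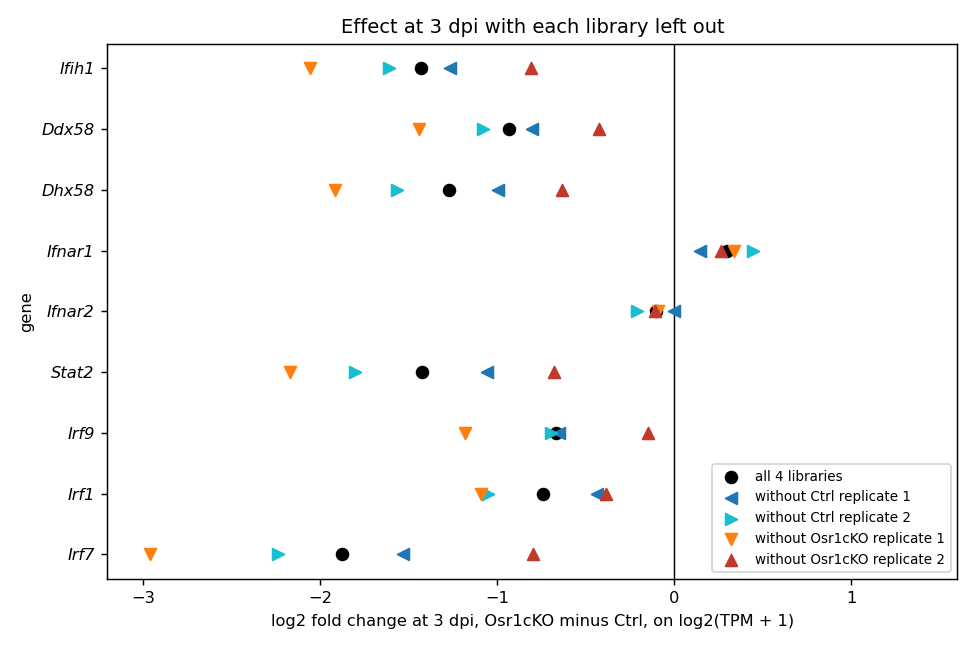
Log2 fold change of Osr1cKO against Ctrl at 3 dpi (x axis) of the 9 genes (y axis) with all 4 libraries (black circles) and with each library left out in turn (triangles). The 7 genes other than *Ifnar1* and *Ifnar2* stay below 0 in every fit, and *Irf7* moves between -2.96 and -0.80.

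At 7 dpi none of the 9 genes differed between genotypes at the adjusted threshold of the study (Benjamini-Hochberg adjusted p under 0.1 in limma and a fold change over 1.2), which 0.0483% of 16578 genes passed as lower and 0.0181% as higher. The study applied this threshold to DESeq2 results and called many more genes by it, so this outcome belongs to the limma fit. By the unadjusted threshold used at 3 dpi, 4 genes were lower, *Ifih1*, *Stat2*, *Irf9* and *Irf1*, against 5.91% of all genes lower and 5.21% higher. In deposited TPM, *Irf1* was at 256 and 255 in Ctrl and at 161 and 237 in Osr1cKO, with a log2 difference of -0.52 ± 0.17 (95% confidence interval -0.93 to -0.11, adjusted p = 0.335). Osr1cKO replicate 1 was the library that stood apart, and without it the difference was -0.27. *Stat2* was at 82.1 and 95.1 TPM in Ctrl and 66.2 and 83.5 TPM in Osr1cKO, overlapping in TPM, with a log2 difference of -0.38 ± 0.12 (adjusted p = 0.340). *Irf9* was at 39.2 and 43.4 TPM against 32.3 and 38.5 TPM (-0.35 ± 0.10, adjusted p = 0.315).

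The sensors and *Irf7* lay at lower levels in both genotypes at 7 dpi than in Ctrl at 3 dpi. *Ifih1* was at 20.7 and 22.4 TPM in Ctrl and 17.5 and 20.2 TPM in Osr1cKO (log2 difference -0.31 ± 0.10, adjusted p = 0.342). *Ddx58* was at 37.9 and 35.1 TPM against 35.0 and 44.3 TPM (-0.02 ± 0.12, interval -0.31 to 0.27), and *Dhx58* at 18.3 and 18.1 TPM against 15.7 and 18.5 TPM (-0.21 ± 0.11, interval -0.47 to 0.05). For *Irf7*, 114 and 124 TPM in Ctrl stood against 102 and 120 TPM in Osr1cKO. These overlapped in TPM, and its log2 difference of -0.23 ± 0.09 (adjusted p = 0.394) was a fold change of 1.17, below the threshold. *Ifnar1* was at 44.4 and 48.5 TPM against 50.4 and 53.4 TPM, and *Ifnar2* at 61.4 and 66.3 TPM against 65.8 and 63.0 TPM, with log2 differences of 0.03 and -0.12. In 7 of the 9 genes the lowest library was Osr1cKO replicate 1.

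The values at 7 dpi depended on how libraries were put on a common scale. The fits used TPM scaled so that most genes had no difference between libraries (median of all genes 0.00), whereas in deposited TPM the median gene was higher in Osr1cKO by 0.11 on the log2 scale. On scaled values 7 of the 9 genes were lower in both Osr1cKO libraries than in both Ctrl libraries, as were 22.8% of all genes. In deposited TPM 3 were, *Ifih1*, *Irf9* and *Irf1*, and the share of all genes without overlap was not counted on that scale. Without scaling no gene of the 9 passed even the unadjusted threshold, the log2 difference of *Irf7* was -0.10, *Ddx58* (0.11) and *Ifnar2* (0.01) turned positive, and the split of all genes at that threshold went from 864 higher and 979 lower to 2282 higher and 468 lower.

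From 3 to 7 dpi, 5 of the 9 genes fell in Ctrl FAPs and 1 rose. *Dhx58* fell 6.31-fold (log2 fold change -2.66 ± 0.19, adjusted p = 0.00384), *Irf7* 5.32-fold (-2.41 ± 0.24, adjusted p = 0.00456), *Ifih1* 4.14-fold (-2.05 ± 0.14, adjusted p = 0.00377) and *Ddx58* 3.36-fold (-1.75 ± 0.13, adjusted p = 0.00384). For these 4 the lowest library at 3 dpi was between 3.18 times (*Ddx58*) and 5.69 times (*Dhx58*) the highest at 7 dpi, so the change exceeded the spread at either time point. *Stat2* fell 1.70-fold (-0.77 ± 0.25, adjusted p = 0.0643). This call rested on both 7 dpi libraries, since it was lost without replicate 1 (-0.63) or without replicate 2 (-0.81) of that group. It was kept without a 3 dpi library, but at -0.45 without replicate 1 and -1.14 without replicate 2. The count of all genes called lower in Ctrl went from 4200 to between 1685 and 5177 with 1 library left out, lowest without 7 dpi replicate 2.

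*Irf1* went the other way and rose 2.52-fold in Ctrl (1.33 ± 0.20, adjusted p = 0.0102), from 110 ± 33.7 to 256 ± 0.71 TPM (n = 2). *Ifnar1* (-0.01 ± 0.16, interval -0.42 to 0.39), *Ifnar2* (-0.20 ± 0.11) and *Irf9* (-0.25 ± 0.11, adjusted p = 0.136) did not pass the threshold. These counts stand against 25.4% of 16525 genes called lower and 23.8% called higher between the time points, which also differ in the number of mice per library and in sex.

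In Osr1cKO FAPs, 3 of the 9 genes fell and 1 rose over the same interval, where 29.1% of 16279 genes were called lower and 27.4% higher. *Dhx58* fell 3.06-fold (-1.61 ± 0.40, adjusted p = 0.0251), *Ddx58* 1.81-fold (-0.85 ± 0.33, adjusted p = 0.0836) and *Ifnar1* 1.23-fold (-0.30 ± 0.09, adjusted p = 0.0395). On unscaled TPM *Ddx58* (-0.80) and *Ifnar1* (-0.25) were no longer called, nor were they with a filter at a mean of 1 TPM, which left *Dhx58* as the 1 gene lower. *Irf1* rose 2.90-fold (1.54 ± 0.27, adjusted p = 0.00889), from 65.8 ± 21.1 to 199 ± 53.8 TPM, and was again separated by 1.99 times between its nearest libraries. The 2 Osr1cKO libraries of 3 dpi set the precision of the rest. *Ifih1* had a log2 change of -0.95 ± 0.39 (adjusted p = 0.101), *Irf7* of -0.78 ± 0.67, *Stat2* of 0.26 ± 0.47 and *Irf9* of 0.05 ± 0.33, and for the last 3 the level of Osr1cKO replicate 2 at 3 dpi was below both libraries of 7 dpi. Without that library 7 genes were called lower, with *Irf7* at -1.87 and *Stat2* at -0.49. Without replicate 1 of that group *Irf7* was at 0.28 and *Stat2* at 0.98, and 4 genes were called in each direction. Without replicate 1 of the 7 dpi group no gene was called lower, and without replicate 2 of it 1 was, *Dhx58*. Over these fits the count of all genes called lower, 4734 with all libraries, lay between 2959 and 4720, and that called higher, 4460 with all libraries, between 2607 and 4181, in each case lowest without replicate 2 of the 7 dpi group.

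**Figure D4:**
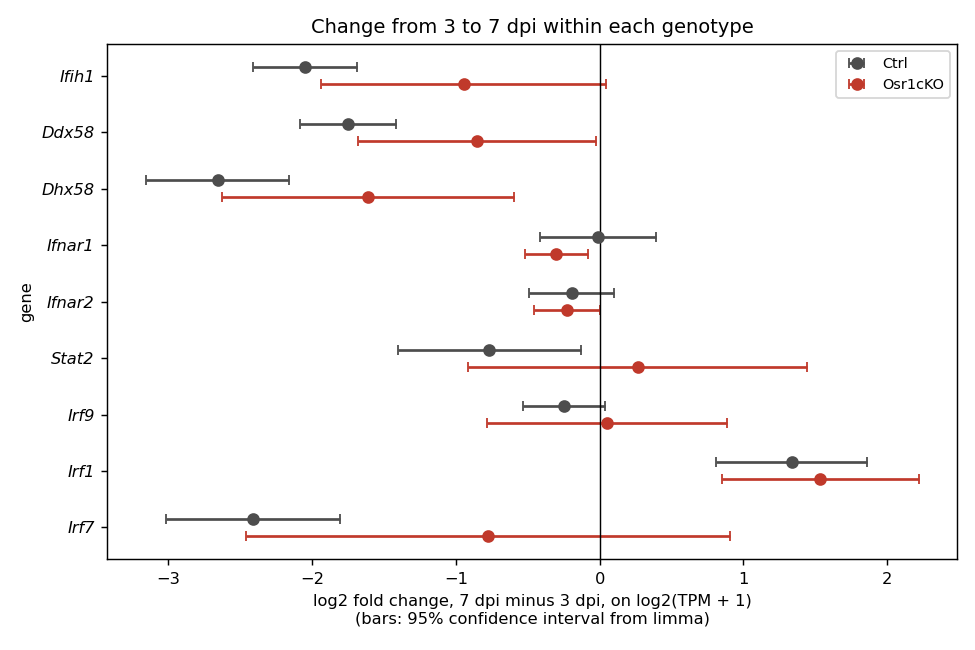
Log2 fold change from 3 to 7 dpi (x axis) of the 9 genes (y axis) in Ctrl (grey) and Osr1cKO (red), with bars for the 95% confidence interval from limma. *Ifih1*, *Ddx58*, *Dhx58* and *Irf7* lie at -1.75 or lower in Ctrl, and *Irf1* lies above 1.3 in both genotypes.

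Whether the genotype difference itself changed between the time points was tested over all 8 libraries. None of the 9 genes and 0% of the 17371 genes tested passed an adjusted p of 0.05 in limma, and 1177 genes (6.78%) had a p under 0.05 before adjustment, none of them among the 9. The interaction was largest for *Irf7* (1.64 ± 0.85 on the log2 scale, adjusted p = 0.786), followed by *Ifih1* (1.11 ± 0.49, adjusted p = 0.744), *Dhx58* (1.05 ± 0.53, adjusted p = 0.783), *Stat2* (1.04 ± 0.63, adjusted p = 0.854) and *Ddx58* (0.90 ± 0.41, adjusted p = 0.756). For *Irf1* it was 0.21 ± 0.39 (adjusted p = 0.982). The comparisons within a time point and within a genotype share libraries and are not independent of each other.

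The order of levels among the 9 genes also differed between time points. In Ctrl at 3 dpi *Irf7* stood alone at the top, *Stat2*, *Ddx58*, *Dhx58*, *Irf1* and *Ifih1* followed with each overlapping its neighbour, and *Ifnar2*, *Irf9* and *Ifnar1* came last, the last 2 overlapping. In Ctrl at 7 dpi *Irf1* was first, *Irf7* second and *Dhx58* last at 18.2 ± 0.12 TPM, and no neighbours in the order overlapped. The order at 7 dpi in Osr1cKO was the same except that *Ddx58* stood above *Irf9*, a pair that overlapped, as did *Ifih1* and *Dhx58*. In Osr1cKO at 3 dpi every neighbouring pair overlapped.

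The rest of the pathway was described with 76 further genes, of which 52 could be tested at 3 dpi. By the study threshold for that time point 12 were lower and 1 was higher in Osr1cKO, with a median log2 difference of -0.27. All had an adjusted p of 0.772 or more in limma. Of the 21 interferon genes, 2 passed the filter at 3 dpi and both were lower. *Ifnb1*, encoding interferon beta, was at 15.6 and 10.9 TPM in Ctrl and 4.43 and 1.02 TPM in Osr1cKO (-2.09 ± 0.52, 95% confidence interval -3.41 to -0.76), and was below 1 TPM in every library at 7 dpi, where it was not tested. *Ifna4* was at 5.87 and 4.34 TPM against 1.83 and 0.408 TPM (-1.60 ± 0.38, interval -2.58 to -0.61), a value that is uncertain because interferon alpha genes are close copies of each other. It did not pass the filter within Osr1cKO libraries, so that it was tested at 3 dpi only through Ctrl, where it is higher, and its count as lower is no support.

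Among sensors of other kinds, 5 of 7 tested were lower at 3 dpi and none was higher. *Tlr3*, the endosomal receptor for double-stranded RNA, was at 76.7 and 52.8 TPM in Ctrl and 32.0 and 18.7 TPM in Osr1cKO (-1.35 ± 0.32, interval -2.17 to -0.52). *Ifi204*, an interferon-inducible DNA sensor, was at 674 and 418 TPM against 288 and 238 TPM (-1.02 ± 0.27, interval -1.70 to -0.33). The other 3, named after their values were seen, were *Tlr7* (-0.98), *Zbp1* (-1.40) and *Eif2ak2* (-0.73). Of the adaptors and cofactors 1 of 11 was lower, *Trim25*, the ubiquitin ligase of the RIG-I pathway, at 188 and 123 TPM against 90.3 and 55.6 TPM (-1.09 ± 0.32, interval -1.91 to -0.27).

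None of the 8 JAK and other STAT genes tested at 3 dpi passed the threshold, with 8 of 8 fitted values below 0 and a median of -0.19. Of 8 other IRF genes and IRF2 partners 3 were lower, *Irf5* (53.8 and 18.0 TPM against 10.9 and 7.12 TPM, -1.71 ± 0.53, interval -3.08 to -0.35), *Irf2bpl* (-0.46 ± 0.14, interval -0.81 to -0.11) and *Irf2* (-0.45). *Irf5* shares 14.1% of its exon bases with *Tnpo3* on the opposite strand. *Irf3*, the constitutive IRF that starts the response, was at 20.3 and 25.6 TPM against 26.4 and 24.7 TPM, overlapping (0.15 ± 0.18, interval -0.30 to 0.60). None of the 3 other receptor genes passed. Of 13 inhibitors 1 was lower, *Usp18*, an interferon-induced brake on IFNAR2 signalling (303 and 244 TPM against 164 and 46.6 TPM, -1.62 ± 0.60, interval -3.16 to -0.09), and 1 was higher, *Rnf125*, a ubiquitin ligase that acts on RIG-I (18.1 and 16.0 TPM against 22.0 and 29.0 TPM, 0.54 ± 0.18, adjusted p = 0.773 in limma).

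Single libraries moved these counts as well. The number of all genes called lower at 3 dpi moved in such fits too, so a move is not a result about the pathway. At 7 dpi none of the 49 pathway genes tested passed the adjusted threshold in limma. At the unadjusted one 9 were lower and none higher, beside 5.91% and 5.21% of all genes. The pathway median was -0.13 on scaled values. In deposited TPM the median of all genes was higher in Osr1cKO by 0.11 on the log2 scale, and the pathway was not counted there at the unadjusted threshold. In Ctrl 17 of 52 pathway genes were called lower and 4 higher at 7 than at 3 dpi, beside 25.4% and 23.8% of all genes, with *Usp18* (-2.62 ± 0.13, adjusted p = 0.00330) among the lower ones. *Ifnb1* and *Ifna4* are among the 17, but they passed the filter only through their 3 dpi libraries, so their direction was set by the filter (for *Ifnb1*, 15.6 and 10.9 TPM at 3 dpi, 0.371 and 0.483 TPM at 7 dpi).

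**Figure D5:**
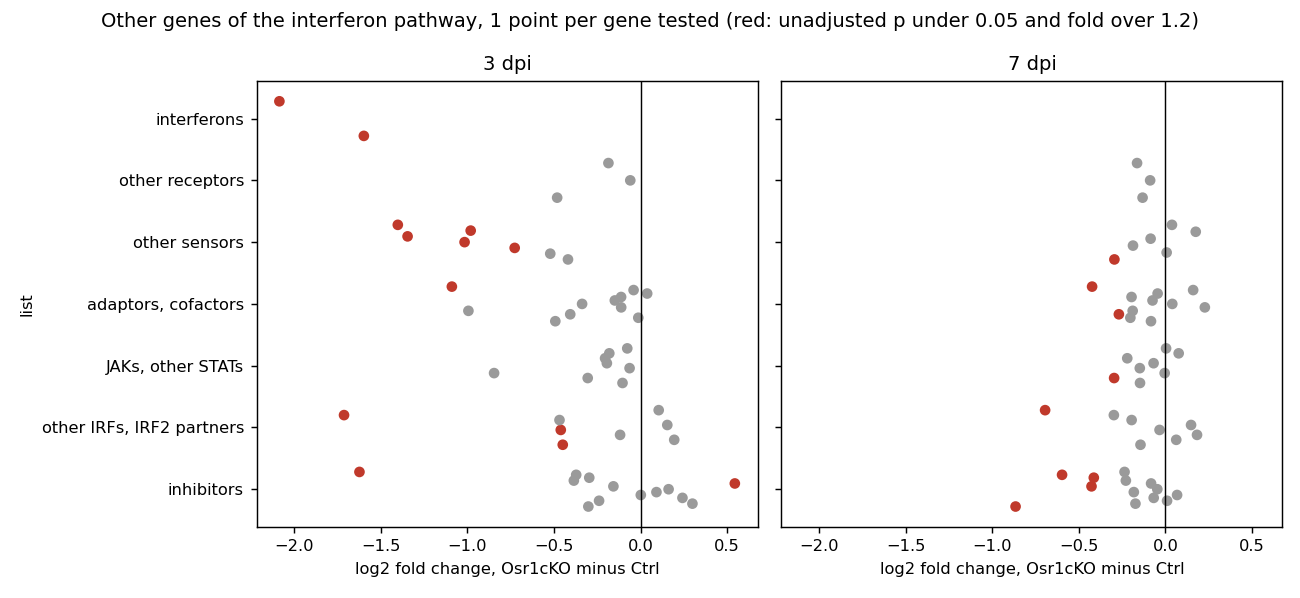
Log2 fold change of Osr1cKO against Ctrl (x axis) of the other interferon pathway genes tested, 1 point per gene, by list (y axis) at 3 dpi (left) and 7 dpi (right), red where the p before adjustment was under 0.05 with more than a 1.2-fold change. At 3 dpi 13 points are red, 12 of them below 0, beside 3.89% of all genes lower and 2.38% higher. At 7 dpi 9 are red, all below 0, beside 5.91% of all genes lower and 5.21% higher.

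The genes whose profile over the 8 libraries came nearest to that of *Irf7* were found by the root mean square difference of centred log2 values among 10254 genes. They were *Phf11d* (0.19), *Ifi47* (0.19), *Oas1a* (0.21), *Gbp3* (0.21) and *Phf11b* (0.21), against a spread of 1.18 of *Irf7* about its own mean. *Phf11d* measured 249 and 178 TPM in Ctrl and 108 and 37.6 TPM in Osr1cKO at 3 dpi, and 29.8 to 42.3 TPM at 7 dpi. Its libraries had the same order at 3 dpi as those of *Irf7*, which follows from its choice by nearness to that profile. Nearest to the mean profile of the 9 genes were *Isg20* (0.07), *Psme1* (0.10), *Aftph* (0.12), *Grn* (0.13) and *Npc2* (0.14). *Isg20*, an interferon-stimulated exonuclease, was at 84.7 and 64.2 TPM in Ctrl and 47.4 and 27.3 TPM in Osr1cKO at 3 dpi.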

How the data were processed

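RNA of GFP+ FAPs was made into stranded, polyA-selected libraries and sequenced in paired-end mode. According to the labels and the methods of the study, the authors mapped reads to mm10 with STAR, normalized fragment counts with DESeq2 and deposited TPM per gene symbol, 1 table per library. The counting tool, its strand setting and the annotation are not given in the sources used here, nor is which time point ran on which of the 2 sequencers the study names. Each table held 55385 entries. For 106 symbols listed more than once the first entry was kept, leaving 55276, of which 53281 matched 1 gene of GENCODE release M21 (GRCm38). Every column belonged to a sample of the series.

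Exon lengths gave back the fragments behind each TPM value (98.7% to 98.9% of values below 50 fragments were within 0.02 of a whole number). Intervals on these cover counting error only. A gene was tested with at least 10 fragments in 2 libraries and 15 over the libraries compared, or with a mean of at least 1 TPM where it had no length. Libraries were put on a common scale with factors from the mean of log ratios after trimming 30%, and log2(TPM + 1) was fitted with limma 3.58.1 (lmFit, eBayes with trend) in R 4.3.3, with Benjamini-Hochberg adjustment over all genes tested. Fold changes are on that scale and understate those of low genes. The script was tested on simulated data. Groups came from the labels, with no replicate block, and p-values rest on 2 libraries per group. Motifs were searched with Python 3.11.15 in promoter windows from RefSeq.

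The 9 genes and the lists were chosen with earlier results of these data known. All 9 genes are named in every comparison. Of each pathway list the 2 genes of smallest p past the threshold are named at each time point, and *Irf3*, *Osr1* and the 5 genes of nearest profile always. A further gene of this rule is not reported here. Alternatives covered the threshold, scaling, pseudocount (0.1 and 0.5), filter, limma-voom, robust moderation, a joint fit of all libraries, a replicate block and leaving out each library.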

Additional observations from a re-analysis of the deposited data

How the results depend on the processing

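At 3 dpi the 5 genes called lower became 0 with the adjusted threshold, 1 with no filter on low values, 2 with a replicate block of crossed numbers, and 0 to 7 with 1 library left out. The 0 called higher became 1 in the joint fit of all 8 libraries, and 0 to 1 with 1 library left out. Among the pathway genes the 12 lower became 0 with the adjusted threshold, 20 in the joint fit and 5 to 20 with 1 library left out, and the 1 higher became 0 with the adjusted threshold, 0 with the replicate block and 0 to 1 with 1 library left out. At 7 dpi the 0 genes called lower became 4 with the unadjusted threshold, and the 0 pathway genes became 9 with it, 2 with limma-voom and 0 to 1 with 1 library left out. From 3 to 7 dpi in Osr1cKO the 3 genes called lower became 1 on unscaled TPM, 1 with a filter at a mean of 1 TPM and 0 to 7 with 1 library left out, and the 1 called higher became 1 to 4. In Ctrl 4 to 6 genes were called lower and 1 higher under every alternative, and 0 of the 9 had an interaction under any. The number of all genes called also moved under several alternatives, so these counts cannot be read as an excess. The cause of these changes was not tested.

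Values that changed sign were *Ddx58* at 7 dpi (0.11 unscaled, -0.16 to 0.11 with 1 library left out), *Ifnar2* at 7 dpi (0.013 unscaled), *Ifnar1* at 7 dpi (-0.026 to 0.083), *Ifnar1* in Ctrl (0.039 with the filter at 1 TPM, -0.22 to 0.14), *Irf9* in Osr1cKO (-0.028 with no filter, -0.47 to 0.54), *Stat2* (-0.49 to 0.98) and *Irf7* (-1.87 to 0.28) in Osr1cKO, and in the interaction *Ifnar2* (0.11 unscaled, -0.10 to 0.047), *Irf9* (-0.21 to 0.81) and *Irf1* (-0.14 to 0.54). *Irf7* at 3 dpi lost its call with the filter at 1 TPM and with no filter.

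Replicate numbers did not pair the libraries. Deviations of same-numbered libraries correlated at -0.13 (3 dpi), 0.06 (7 dpi), -0.16 (Ctrl) and -0.09 (Osr1cKO) across genes. With the replicate block 6 genes were called lower at 3 dpi and 0 at 7 dpi, 5 in Ctrl and 4 in Osr1cKO. Crossed numbers, chosen after seeing the data, gave 2 at 3 dpi and 5 in Ctrl. How many of all genes each block called was not set beside these counts, so they cannot be read as an excess. Over the alternatives that kept every library, the number of all genes called lower at 3 dpi ranged from 0 to 932 (main fit 611). For the change within Osr1cKO the range was 4183 to 4782 (main fit 4734). With 2 libraries per group the intervals at 3 dpi span more than 1 log2 unit for the 7 genes other than the receptor subunits.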

Other observations

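Several pathway genes moved opposite to the sensors between the time points in Ctrl. *Irf8*, an IRF of myeloid cells, was at 0.819 and 0.490 TPM at 3 dpi and 3.16 and 2.59 TPM at 7 dpi (1.29 on the log2 scale, adjusted p = 0.00919 in limma), and *Cish*, an inhibitor induced by STAT5, went from 12.7 and 6.89 TPM to 28.4 and 26.2 TPM (1.53, adjusted p = 0.0137). Both were chosen after their values were seen. Summed macrophage markers were 20.1 and 17.9 TPM in Ctrl at 3 dpi and 39.3 and 39.0 TPM at 7 dpi. In TPM the rise was largest for *Lyz2* (2.93 and 6.93 to 23.9 and 21.1 TPM). *Cd68* overlapped (15.4 and 8.38 against 12.5 and 13.7 TPM), and *Fcgr1* was lower at 7 dpi (0.403 and 0.638 to 0.143 and 0.350 TPM). Of the 8 markers 2 were called higher and 0 lower, beside 23.8% and 25.4% of all genes. The part of macrophages in these values was not tested.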
